A study of Arabidopsis thaliana with 13 samples.

Results

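Transcript levels at 12 h were compared with those at 0 h in Arabidopsis thaliana, a plant of the mustard family, as the step with most arrays in a study of diurnal and circadian gene expression. The comparison was chosen by the times in the array labels. It takes 5 of the 13 arrays of the series, of which 4 carry the main result and 1, titled single, is shown beside them. Each array is a spotted cDNA array in 2 colours, on which RNA harvested at 12 h and RNA harvested at 0 h were hybridised together, so every value is a ratio of 12 h to 0 h within 1 array. The other 8 arrays compared 6, 18 and 24 h with 0 h, 36 h with 24 h (1 array labelled dark and 1 with no light condition given) and 60 h with 48 h. Accession, age, organ and the hours of light and dark are not given in the sources used here for the 12 h and 0 h plants. Where 12 h falls in the light period is therefore taken from no label, and 12 h and 0 h are used below as names of the harvests.

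Plants run much of their metabolism on a daily schedule. A circadian clock of transcription factors that repress each other keeps time inside each cell, and light, temperature and sugar act on the same genes. Genes of photosynthesis are known to be expressed mostly in the first part of the day, genes of starch breakdown mostly towards dusk, and genes that respond to cold are known to be gated by the clock. Sugar supply also acts on transcripts through the energy-sensing kinase SnRK1, which switches cells towards the use of reserves when carbon is short.

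The 4 main arrays gave a log2 ratio for 12757 to 12786 of the 12800 features. They were read with ScanAlyze 2.44 (array 1) and 2.33 (arrays 2, 3 and 4). The 12 h RNA was in channel 2 on arrays 1 and 3 and in channel 1 on arrays 2 and 4. Ratios were read as channel 2 over channel 1. The array's median was subtracted and signs were set to 12 h over 0 h, so a positive log2 value means more transcript at 12 h, and 1 unit is a 2-fold difference. No source used here states that reading. It is called likely because such ratios are usually given that way, and because under it MCCA, IVD and MCCB, genes of leucine breakdown known to be induced in darkness, had fitted log2 changes of 3.56, 3.40 and 2.47 at 36 h over 24 h on the array labelled dark. These genes had like values on the array of 36 h over 24 h with no light condition given, at 3.12, 2.68 and 2.99, so their rise was not particular to the array labelled dark and the basis is weak. If the authors divided the other way, every rise and fall below turns round.

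Features assigned to a single gene, 5197 in all, were averaged into 3689 named genes, and each other feature was tested alone, as a target without a name. Across targets, arrays of the same channel order correlated at 0.53 (arrays 1 and 3) and 0.57 (arrays 2 and 4), and arrays of opposite order at 0.11 to 0.35. These correlations across genes describe the arrays and are no test. The model used here, fitted with limma, holds a dye term for which channel held the later time. Its coefficient had an SD of 0.342 across targets, against 0.529 for the change at 12 h. The array titled single stood apart from all 4, with r of -0.05 to 0.07. The SD of its log2 ratios was 0.382, against 0.694 to 0.799 on the 4 arrays. Of its features, 2.07% were over 2-fold from the array median, against 12.5% to 18.4% on the 4 arrays. Across named genes with more than 1 feature, the first 2 features correlated at 0.13 on it, against 0.44 to 0.53 on the 4 arrays. Whether the array titled single held the same kind of comparison was not tested.

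**Figure D1:**
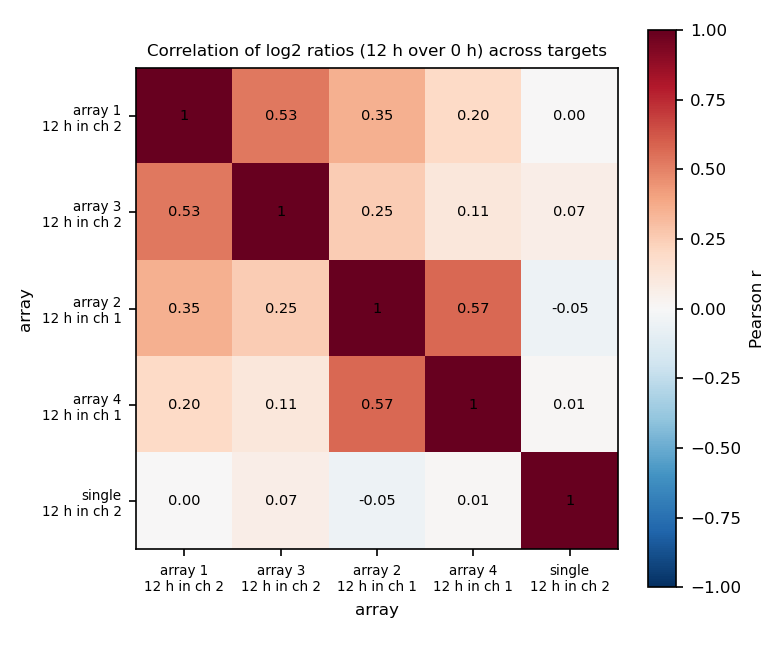
Pearson correlation across all targets of the log2 ratios of each pair of arrays, after turning to 12 h over 0 h, for arrays 1 to 4 and the array titled single. The 4 arrays correlate at 0.11 to 0.57 with each other, highest between arrays of the same channel order, and the array titled single at -0.05 to 0.07 with them.

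At 12 h, 1063 of 11291 targets had changed (9.41% of targets, limma, Benjamini-Hochberg adjusted p under 0.05, here termed called), of which 522 were higher at 12 h (4.62%) and 541 were lower (4.79%). A total of 628 of the called targets had changed at least 2-fold and 86 at least 4-fold, and the median size of a called change was a log2 of 1.08, against 0.261 over all targets. All 4 arrays gave the same sign for 1019 of the 1063 (95.9%), against 27.4% of all targets. Among the named genes 275 of 3689 were called (7.45%), with 127 higher (3.44%) and 148 lower (4.01%), and these shares are the background for every group of genes below. A mean of 2-fold or more was reached by 149 named genes (4.04%), of which 137 were called. Among the targets without a name 788 of 7602 were called (10.4%). The p-values, and each SE given with n = 4 arrays, rest on the spread left in the fit of 12 arrays after the dye term. Only comparisons with more than 1 array add to that spread, and the 4 arrays are the largest such group. A comparison with a lone array is fitted exactly and adds nothing to it. The p-values and SEs do not measure how far the 4 arrays alone differ. TUA5 had an SD of 1.82 over the 4 arrays and an SE of 0.25, and AT1G54410 an SD of 0.16 and an SE of 0.29. The arrays are few, and among the 4 no label apart from the word biological on array 1 speaks of separate plants. The spread may therefore be technical.

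The number of calls depends on which arrays are used. Without array 1, 2, 3 or 4 there were 626, 444, 603 and 513 calls, and with the array titled single added there were 464. There were 63 calls with the 3 arrays of ScanAlyze 2.33 averaged to 1, 1229 among the arrays of ScanAlyze 2.33 alone, and 1 when array 2 of the 6 h comparison, whose title and channels give opposite orders, was turned to its title. Under each of these settings except ScanAlyze 2.33 alone, all 1063 targets kept their sign, and under that setting 1060 did. The targets were called on the mean of these same arrays, and 1019 had the same sign on all 4. Kept signs were therefore favoured and are no check of direction. On the array titled single, which took no part in the calls, 513 of the 1063 had the same sign (48.3%).

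The 15 largest rises and 15 largest falls were picked among called named genes with the same sign on all 4 arrays, so that shared sign is no finding for them. The largest rise was that of AT3G24450, at 1.71, 2.77, 3.26 and 2.93 on arrays 1 to 4. Its mean was a log2 of 2.67 ± 0.36 (SE, n = 4 arrays, limma adjusted p = 0.00376), or 6.35-fold. Array 1 was lowest, and the array titled single gave 0.25. CHL (AT3G47860), a lipocalin of the chloroplast that protects thylakoid lipids from oxidation, had values of 1.65, 2.39, 1.86 and 2.41, with 0.24 on the array titled single. Its mean was 2.08 ± 0.25 (SE, n = 4 arrays, limma adjusted p = 0.00244), so CHL transcript was 4.21-fold higher at 12 h, with arrays 2 and 4 highest. PWD (AT5G26570), phosphoglucan water dikinase, which adds phosphate to the starch granule surface so that the granule can be broken down, had values of 2.58, 1.83, 2.12 and 1.16, with -0.06 on the array titled single. It rose 3.79-fold (log2 1.92 ± 0.19, SE, n = 4 arrays, limma adjusted p = 0.00108), with array 1 highest and array 4 lowest.

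KIN2 (AT5G15970), a small hydrophilic protein made in the cold and under dehydration, had values of 0.97, 1.99, 2.17 and 2.86, with 0.28 on the array titled single. Its mean rise was 4.002-fold, but the arrays spread over nearly 2 log2 units (2.0006 ± 0.50, SE, n = 4 arrays, limma adjusted p = 0.0431), and it stayed called under 9 of 18 other settings. The other genes among the 15 largest rises are known here by locus alone. They ran down in order from AT4G34950 (2.50), AT4G09500 (2.25) and AT1G70820 (2.22) through AT1G78110, AT2G41090, AT3G27700, AT1G12760, AT1G13930, AT4G30660 and AT1G33970 to AT5G62350 (1.59). AT1G33970 was the steadiest of them, at 1.71, 1.4995, 1.63 and 1.90. AT4G34950 was the least steady, with 0.70 on array 1 and 4.45 on array 4. AT1G70820 had 0.62 on array 1 and 3.52 on array 4, so the size of either rise rests on which arrays are averaged.

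The largest fall was that of AT1G68440, at -2.23, -2.38, -1.78 and -2.67, a mean of -2.27 ± 0.30 (SE, n = 4 arrays, limma adjusted p = 0.00352). AT5G15950 gave -2.02, -2.34, -1.91 and -2.19, and had the smallest adjusted p of the 30 genes (-2.11 ± 0.16, SE, n = 4 arrays, limma adjusted p = 0.000377). The 4 arrays lay close together for AT5G15950, while the array titled single gave 0.34 for AT1G68440 and 0.28 for AT5G15950. TZP (AT5G43630), a zinc knuckle protein that acts in light-dependent growth of the seedling stem, had values of -1.44, -2.43, -2.30 and -0.96, with -0.40 on the array titled single. TZP transcript was thus 3.44-fold lower at 12 h (log2 -1.78 ± 0.27, SE, n = 4 arrays, limma adjusted p = 0.00544), with arrays 2 and 3 lowest.

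CP5 (AT1G64720), annotated as a membrane-related protein, fell by a log2 of 1.76 on average, and its 4 arrays ran from -2.11 to -1.33. AKINBETA1 (AT5G21170), a beta subunit of SnRK1, had values of -1.24, -1.71, -1.51 and -2.11 and was 3.12-fold lower at 12 h (log2 -1.64 ± 0.17, SE, n = 4 arrays, limma adjusted p = 0.0014). Array 4 gave the smallest fall for CP5 and the largest for AKINBETA1. The other genes of the 15 largest falls are AT1G19400 (-1.93), AT2G18970, AT5G14120, AT3G56290, AT4G27450, AT3G15356, AT4G32900, AT5G28740, AT4G32480 and AT4G01880 (-1.59). AT3G56290 and AT3G15356 had uneven values, with -3.31 and -2.84 on array 1 against -0.94 and -0.90 on array 3. Of the 30 genes, 22 stayed called with the array titled single added, and 27, 23, 28 and 22 without array 1, 2, 3 and 4, while 5 did with the arrays of ScanAlyze 2.33 averaged and 0 with array 2 of 6 h turned.

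**Figure D2:**
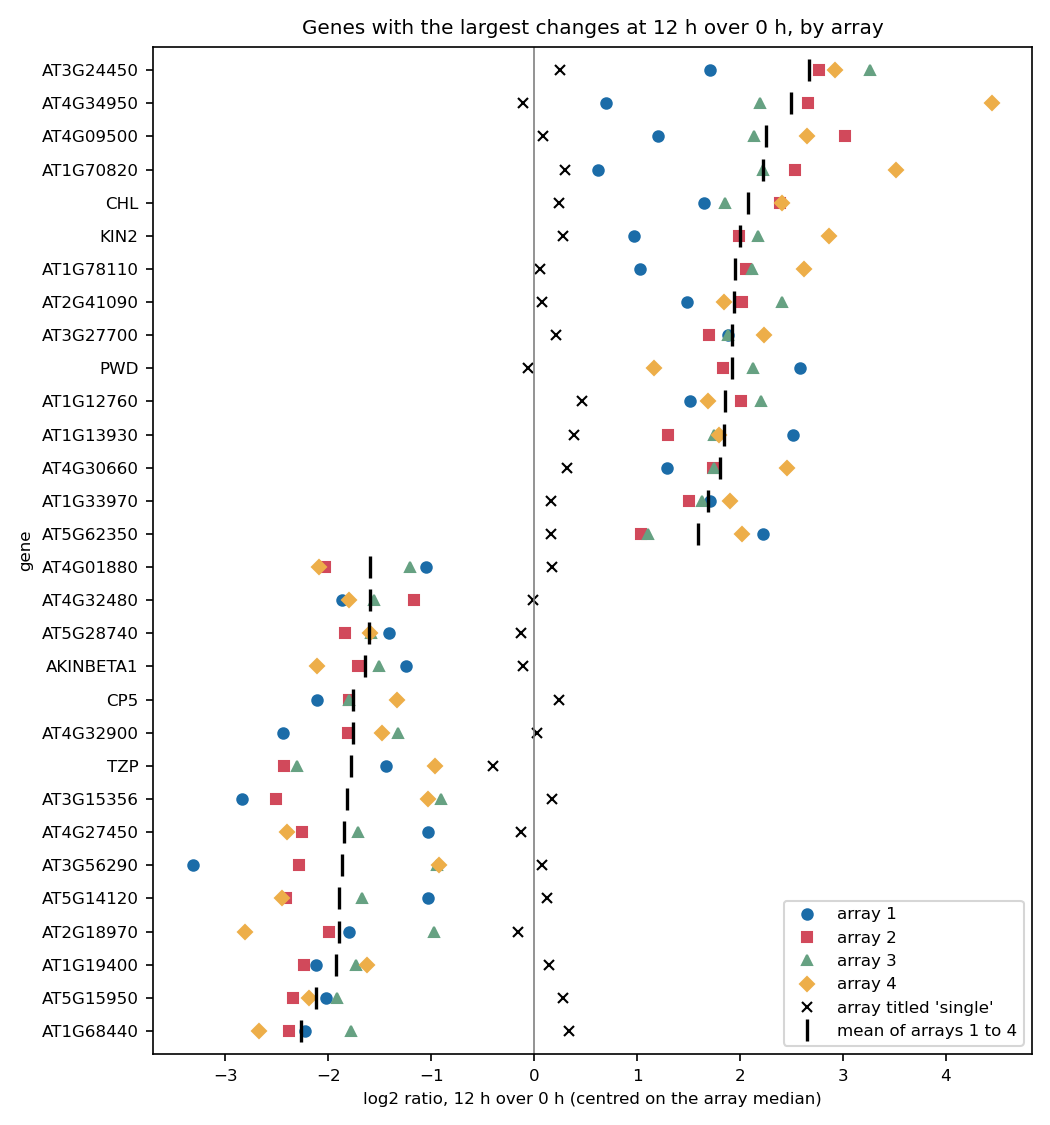
Log2 ratios of 12 h over 0 h (horizontal axis, centred on the array median) for the 15 named genes with the largest rise and the 15 with the largest fall (vertical axis), with a symbol per array, a cross for the array titled single and a bar for the mean of arrays 1 to 4. AT3G24450 is at the top with a mean of 2.67 and AT1G68440 at the bottom with -2.27, while the crosses lie near 0.

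Named genes were grouped into 28 lists by function, with 337 distinct members, of which 48 were called, 26 higher and 22 lower. Members and lists were chosen with earlier results of these data known, so their share of calls beside the background is no finding. The median log2 change was close to 0 over all named genes (0.00 to 2 decimals). Counts and medians of the lists below describe their members and were not tested as sets.

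More genes of the photosynthetic light reactions fell than rose at 12 h. In the light-harvesting antenna, the chlorophyll-binding proteins that pass light energy to the photosystems, 2 of 4 measured genes fell and the other two were below 0 without passing, for a median of -0.68. LHCB4.2, a form of the CP29 protein that links the outer antenna to photosystem II, had values of -0.70, -1.02, -1.22 and -0.69. It was lower on every array and fell by 0.91 on the log2 scale (SE 0.16, n = 4 arrays, limma adjusted p = 0.0105). LHB1B2, a protein of the main antenna complex, fell by 0.69 (SE 0.17, limma adjusted p = 0.0365), with -0.86 and -1.32 on arrays 1 and 3 but -0.22 and -0.35 on arrays 2 and 4. Its lower values were thus on the arrays with 12 h in channel 2, and it stayed called under 7 of 18 other settings. On array 3 its spots shared nearly 1 value with those of RCA, as described below. That array may give neither the size nor the direction of its change. The other CP29 genes had means of -0.68 (LHCB4.3, limma adjusted p = 0.0756) and -0.35 (LHCB4.1, limma adjusted p = 0.37). Antenna genes are close copies of each other, and a cDNA spot can bind transcripts of several, so the value of 1 gene may hold signal of its relatives.

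Among subunits and partners of the photosystems, of the NDH complex and of electron transport, 4 of 15 fell and 1 rose, for a median of -0.20. PSAN, a subunit on the lumenal side of photosystem I where plastocyanin docks, had values of -2.005, -1.57, -1.13 and -0.77. CaS, the calcium-sensing protein of the thylakoid, had -0.48, -1.20, -1.02 and -1.17. Both were below 0 on all 4 arrays, and fell by 1.37 (SE 0.35, limma adjusted p = 0.0442) and 0.97 (SE 0.18, limma adjusted p = 0.0121) on the log2 scale. The smaller falls were those of PSBY, a small membrane protein of photosystem II, by 0.78 and of TROL, which tethers ferredoxin-NADP reductase to the thylakoid, by 0.77. The photosystem subunits PSAE-1 (-0.57) and PSBW (-0.55) did not pass. PIFI, a protein needed for electron flow through the NDH complex, went the other way, at 1.82, 0.78, 0.72 and 1.24, and rose by 1.14 (SE 0.21, n = 4 arrays, limma adjusted p = 0.0135). The 4 measured NDH subunits NdhL, NdhN, NdhS and NdhU had means of -0.12 to 0.18. The 5 calls of this list became 1, 0, 1 and 1 without array 1, 2, 3 and 4 and 1 with the array titled single added, and the 2 antenna calls became 1, 0, 0 and 1, and 0.

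In the Calvin cycle, which fixes carbon dioxide, 1 of 3 measured genes fell. RCA (AT2G39730), Rubisco activase, which frees the carbon-fixing enzyme of bound sugar phosphates, had values of -1.71, -0.89, -1.36 and -1.18, with -0.25 on the array titled single. It was 2.44-fold lower at 12 h (log2 -1.29 ± 0.23, SE, n = 4 arrays, limma adjusted p = 0.0103), with the call lost without array 1 or array 4. Its value on array 3 was one that spots of other genes nearly shared, as described below. SBPASE and PRK, enzymes that regenerate the sugar that accepts carbon dioxide, had means of -0.58 (limma adjusted p = 0.087) and -0.52 (limma adjusted p = 0.123) and did not pass. In photorespiration, the salvage path for the product of Rubisco's reaction with oxygen, HPR, a peroxisomal hydroxypyruvate reductase, had values of -1.05, -0.86, -0.61 and -0.83. HPR fell by 0.84 (SE 0.17, n = 4 arrays, limma adjusted p = 0.0185), low on all 4 arrays, though its call was lost without any 1 of them. The other listed photorespiration gene, AT1G11860, had a mean of 0.04 with 2 arrays on each side of 0.

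The genes of pigment and plastid lipid proteins moved in both directions, with 2 of 11 higher and 2 lower. PORB, the light-dependent protochlorophyllide reductase that makes the direct precursor of chlorophyll, had 1.47, 1.27, 1.13 and 1.19, high on all 4 arrays. PORB was 2.40-fold higher at 12 h (log2 1.26 ± 0.15, SE, n = 4 arrays, limma adjusted p = 0.00257). AT1G74470, geranylgeranyl reductase, which makes the phytyl tail of chlorophyll and tocopherol, was at -1.18, -2.07, -1.27 and -1.64 and fell by 1.54 (SE 0.15, n = 4 arrays, limma adjusted p = 0.00111). LIL3:2, a light-harvesting-like membrane protein, fell by 0.59 (SE 0.15, limma adjusted p = 0.0482). CHL was the other member that rose. So PORB and AT1G74470, both of chlorophyll synthesis, moved in opposite directions on each of the 4 arrays.

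Among 10 genes of starch and sugar handling PWD alone was called. Of 18 genes of glycolysis, the TCA cycle and respiration, 2 rose and 0 fell. PDC2, pyruvate decarboxylase of ethanol fermentation, had 1.81, 1.38, 0.39 and 1.2 and rose by 1.196 (SE 0.28, limma adjusted p = 0.034). TPI, triose phosphate isomerase, had 0.84, 0.63, 0.70 and 1.47 and rose by 0.91 (SE 0.19, limma adjusted p = 0.0227). Both were above 0 on all 4 arrays, with array 3 lowest for PDC2 and array 4 highest for TPI, and both lost the call with the array titled single added and without array 1, 2 or 4, and TPI also without array 3.

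Of the beta subunit genes of the energy-sensing kinase SnRK1, AKINBETA1 fell and the other two did not pass. They had means of 0.19 (AT4G16360, KINbeta2, limma adjusted p = 0.554) and -0.19 (AT2G28060, KINbeta3, limma adjusted p = 0.609). SIS, listed with them but no subunit of the kinase, is a serine-rich protein induced by salt. It had -0.91, -0.67, -0.69 and -1.12 and fell by 0.84 (SE 0.16, n = 4 arrays, limma adjusted p = 0.0144). AT4G27450, among the 15 largest falls, had -1.03, -2.25, -1.71 and -2.40, so arrays 2 and 4 were lowest for it as for AKINBETA1.

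Of 9 genes of branched-chain amino acid and lysine breakdown, which yields electrons for respiration when sugar is short, 1 fell. IVD, isovaleryl-CoA dehydrogenase of leucine breakdown, had -2.04, -0.59, -0.94 and -0.75 and fell by 1.08 (SE 0.21, n = 4 arrays, limma adjusted p = 0.0143). Array 1 gave the lowest value, though all 4 were below 0. The subunits of the next enzyme of the path, methylcrotonyl-CoA carboxylase, were below 0 on every array without passing, with means of -0.52 (MCCA, limma adjusted p = 0.209) and -0.59 (MCCB, limma adjusted p = 0.0764). D2HGDH, D-2-hydroxyglutarate dehydrogenase, lay on the other side at 0.59 (limma adjusted p = 0.0927), and AT1G21400 had -0.38. None of 8 autophagy genes was called, the widest being ATG8D at 0.60 (limma adjusted p = 0.0911) and ATG8E at -0.53 (limma adjusted p = 0.151), 2 forms of the protein that coats the growing autophagosome.

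Cold and dehydration genes were called in 4 of 15 cases, 3 higher and 1 lower. Beside KIN2, COR47, an acidic dehydrin that protects membranes and proteins in the cold, had 0.24, 1.37, 1.17 and 2.11 and rose 2.33-fold (log2 1.22 ± 0.23, SE, n = 4 arrays, limma adjusted p = 0.0143). For COR47 as for KIN2, array 1 was lowest and array 4 highest. AT2G44060, a late embryogenesis abundant protein named LEA26, rose by 0.83 (SE 0.20, limma adjusted p = 0.034), with 0.51 on array 2 and 0.93 to 0.97 on the others. HVA22C, of a family of membrane proteins induced by abscisic acid in barley, fell by 1.01 (SE 0.15, limma adjusted p = 0.0056), at -1.22, -0.86, -0.89 and -1.07. So the direction was not shared by the whole list.

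The other cold and dehydration genes did not pass, and the list median was 0.14. RD2 (0.58) and the lipocalin TIL (0.54) were above 0 on all 4 arrays, and so was AT1G54410, the 11 kDa dehydrin, at 0.39. The dehydrin LTI30 had 2.098 on array 1 and -0.13, 0.15 and -0.21 on arrays 2 to 4, so its mean of 0.48 rests on array 1. The 4 calls of the list became 2, 1, 1 and 1 without array 1, 2, 3 and 4.

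Genes of tubulin and the cytoskeleton held more calls than any other list, though not the largest share, with 7 of 22 higher (31.8%) and 0 lower. Their median was 0.50 and 18 of 22 were above 0. Tubulins form the microtubules that guide cell division and the laying down of cellulose. TUA6, an alpha-tubulin, had 1.57, 0.97, 0.998 and 1.199 and rose by 1.18 (SE 0.17, n = 4 arrays, limma adjusted p = 0.00494). The beta-tubulins TUB6, TUB9 and TUB5 rose by 1.17, 1.13 and 0.93, with all 4 arrays of each above 0. TUA3 rose by 0.92 (limma adjusted p = 0.00754) on even values of 0.97, 0.80, 1.13 and 0.80.

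TUA5 had a like mean of 0.96 but uneven values, at 0.24, 2.21, -1.28 and 2.65, high on arrays 2 and 4 (12 h in channel 1) and low on arrays 1 and 3 (12 h in channel 2). Its call (limma adjusted p = 0.0457) came from the fit with the dye term. WLIM1, a protein that bundles actin filaments, rose by 0.85 (SE 0.21, limma adjusted p = 0.0423), with array 1 lowest at 0.18. The alpha-tubulins TUA2 (0.70, limma adjusted p = 0.0725) and TUA1 (0.32, limma adjusted p = 0.38) did not pass. Tubulin genes are near-identical in their coding parts, so spots of different members may share signal. The 7 calls became 3, 3, 4 and 3 without array 1, 2, 3 and 4, 3 with the array titled single added, and 0 with the arrays of ScanAlyze 2.33 averaged. Among 10 histone genes 0 were called by limma, the highest being the histone H3 genes AT5G65360 at 0.66 (adjusted p = 0.0865) and AT5G10390 at 0.52 (adjusted p = 0.0913).

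**Figure D3:**
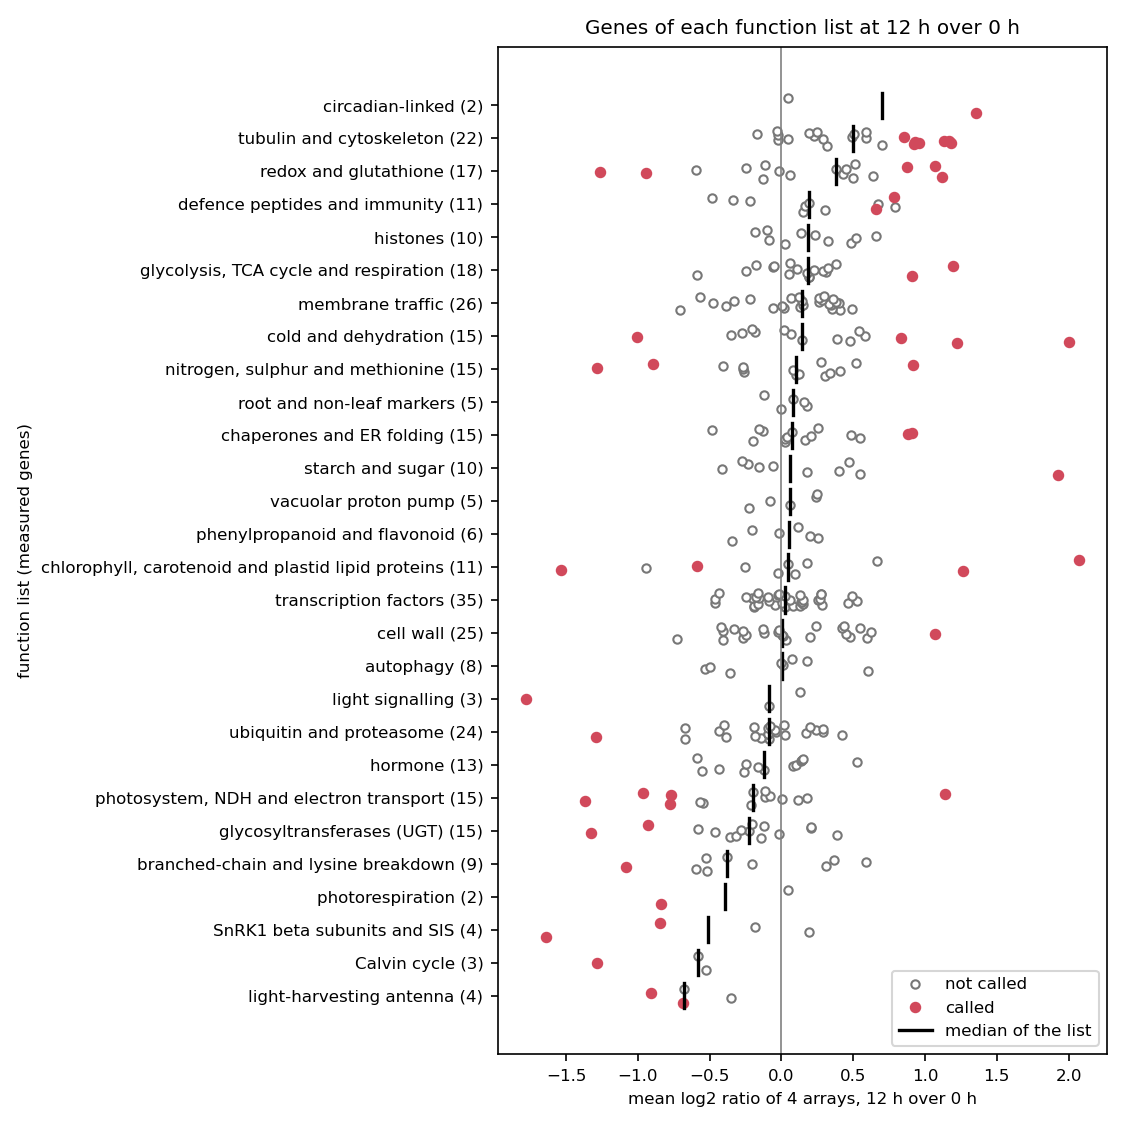
Mean log2 ratio of 12 h over 0 h (horizontal axis) for the members of 28 function lists (vertical axis, number of measured members in brackets), with filled points for called genes, open points for the others and a line at each list's median. The antenna list has the median -0.68 and the tubulin and cytoskeleton list 0.50, with 18 of its 22 members above 0.

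Redox genes were called in 5 of 17 cases, 3 higher and 2 lower. Both that fell are glutathione reductases, which return oxidised glutathione to its reduced form. GR, the form found in plastids and mitochondria, had -1.89, -0.81, -1.26 and -1.08 and fell by 1.26 (SE 0.18, n = 4 arrays, limma adjusted p = 0.00467), and GR1, the cytosolic form, fell by 0.95 (SE 0.24, limma adjusted p = 0.044). Those that rose use glutathione or recycle ascorbate. The glutathione transferase GSTU25 had 0.74, 0.94, 1.01 and 1.77, for a mean of 1.11 (limma adjusted p = 0.00827). The glutaredoxin GRXC2 had 0.39, 0.92, 1.25 and 1.71, for a mean of 1.07 (limma adjusted p = 0.0475). The monodehydroascorbate reductase ATMDAR2 had 1.24, 0.71, 0.94 and 0.62, for a mean of 0.88 (limma adjusted p = 0.00862). All 5 genes kept 1 sign over the 4 arrays, and the 5 calls became 3, 2, 4 and 3 without array 1, 2, 3 and 4. NTRC, a plastid thioredoxin reductase, had -0.25 and did not pass.

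In protein turnover and folding the share of called genes was near the background of 7.45% in all. Of 24 genes of ubiquitin and the proteasome, UBC28, a ubiquitin-conjugating enzyme, fell by 1.29 (SE 0.18, n = 4 arrays, limma adjusted p = 0.00414), at -1.26, -1.82, -1.15 and -0.94. Of 15 chaperone and folding genes 2 rose, and both act in the endoplasmic reticulum. The calreticulin CRT1b rose by 0.91 (limma adjusted p = 0.0129) and the co-chaperone ATERDJ3B by 0.88 (limma adjusted p = 0.0254). Array 1 was highest for CRT1b (1.35) and lowest for ATERDJ3B (0.29), and all 4 arrays were above 0 for both.

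In nitrogen, sulphur and methionine metabolism 1 of 15 rose and 2 fell. SAMDC (AT3G02470), S-adenosylmethionine decarboxylase, which supplies the aminopropyl groups of polyamines, had -0.21, -1.79, -1.61 and -1.53, with 0.39 on the array titled single. It was 2.44-fold lower at 12 h (log2 -1.29 ± 0.25, SE, n = 4 arrays, limma adjusted p = 0.0143), and array 1 stood apart from the other three. GTR2, a transporter that loads glucosinolates into the phloem, rose by 0.91 (limma adjusted p = 0.0111), and AT3G21670, a transporter of the nitrate and peptide family named NPF6.4, fell by 0.89 (limma adjusted p = 0.0364).

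In the cell wall list 1 of 25 was called, the endoglucanase gene GH9C2, at 1.47, 0.85, 1.19 and 0.77 with a mean of 1.07 (limma adjusted p = 0.00455). Of 15 UDP-glycosyltransferases, which attach sugars to hormones and secondary metabolites, 2 fell and 0 rose, namely UGT87A2 by 1.32 (limma adjusted p = 0.018) and UGT73B1 by 0.93 (limma adjusted p = 0.0124). Of 11 defence genes 2 rose, the signalling peptide gene RALFL34 by 0.78 (limma adjusted p = 0.0425) and the defensin-like LCR68 by 0.66 (limma adjusted p = 0.047). The 2 defence calls were both lost without any 1 of the 4 arrays.

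Of the genes tied to the clock, 2 were measured with a name. CCL (AT3G26740), a clock-controlled transcript known for its short life, had 1.82, 1.10, 1.67 and 0.84, with -0.06 on the array titled single. CCL was 2.56-fold higher at 12 h (log2 1.36 ± 0.15, SE, n = 4 arrays, limma adjusted p = 0.00177) and was higher on arrays 1 and 3 than on arrays 2 and 4. TIC, a nuclear regulator of the clock around dawn, had 0.18, 0.52, -0.23 and -0.30, a mean of 0.04 with 2 arrays on each side of 0. In the light signalling list TZP was the 1 called gene of 3.

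Among 35 transcription factor genes 0 were called by limma, with means of -0.47 to 0.53, and among 13 hormone genes 0, with -0.59 to 0.53. The same held for the lists of membrane traffic (0 of 26, -0.71 to 0.49), the vacuolar proton pump (0 of 5, -0.23 to 0.25) and phenylpropanoid and flavonoid synthesis (0 of 6, -0.34 to 0.25). The 5 markers of roots, seeds and flowers lay between -0.12 and 0.18. Since no organ is given and a ratio shows no level, these markers say only that their ratios were close to the median of the array. In bulk RNA, more cells of a type and more RNA per cell cannot be told apart.

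In other lists too the count of calls moved when an array was left out. Without array 1, 2, 3 and 4, the 2 calls of the list of SnRK1 beta subunits and SIS became 1, 1, 2 and 1, the 1 of branched-chain and lysine breakdown became 0, 0, 1 and 0, and the 2 of chaperones became 1, 0, 1 and 0. The 3 of nitrogen, sulphur and methionine became 2, 0, 1 and 0, and the 2 of glycosyltransferases 1, 0, 0 and 0. PWD, UBC28, CCL and TZP stayed called in each of these 4 fits. Of the 119 genes named here, called or not, 34, 50, 32 and 46 lost their call without array 1, 2, 3 and 4.

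Outside the lists, 19 called genes carried a symbol, 12 higher and 7 lower, and those given here were picked after their values were seen. MAP1C, a methionine aminopeptidase of the plastid, rose by 1.54, THIC, which makes the pyrimidine part of thiamine, by 1.32, and ICU2, the catalytic subunit of DNA polymerase alpha, by 1.42. ICU2 had -0.11 on array 1 and 3.04 on array 4, while all 4 arrays were above 0 for MAP1C and THIC. The peroxidases PRXR1 and AT5G64120 (PRX71) rose by 1.38 and 1.44, on values of 1.01 to 1.76 and 1.29 to 1.61. Those that fell include AOR, a plastid reductase of reactive carbonyls, by 1.29, GME, an epimerase on the path to ascorbate, by 1.04, and ALDH11A3, a cytosolic glyceraldehyde-3-phosphate dehydrogenase, by 1.03. All 4 arrays were below 0 for each of these 3 genes.

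Genes spotted more than 1 time show how far separate spots of a gene differ, though their cDNAs can overlap. Of the called genes, 102 had more than 1 feature and 98 of these had all features on 1 side of 0. Among all tested genes with more than 1 feature, called or not, 688 of 1063 did. The calls were made on the means of the same features, which favours a shared side, so this is a description and no independent check. All 9 features of RCA were called when tested alone, at -2.09 to -1.02, and so were all 5 of SAMDC (-1.49 to -1.15), all 5 of CP5 (-2.02 to -1.32), all 5 of COR47 (0.99 to 1.67), all 3 of AKINBETA1 (-1.88 to -1.22) and all 3 of CCL (0.77 to 2.32). For these genes the direction of the mean was the same at every spot. On array 3, though, the 9 features of RCA all lay between -1.44 and -1.28, against -2.73 to -0.70 on array 1.

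LHB1B2 had 13 features, all below 0 (-1.01 to -0.29), of which 7 were called alone. On array 3 they lay between -1.42 and -1.27, nearly the same values as those of RCA, against -1.59 to -0.29 on array 1. The single spots of LHCB4.1 and TUA5 had -1.24 and -1.28 on array 3. On other arrays these 2 spots rose, TUA5 at 2.21 and 2.65 on arrays 2 and 4 and LHCB4.1 at 0.30 on array 4. Why spots of different genes shared nearly 1 value on array 3 was not tested. Their falls there may thus give neither the size nor the direction of each change. CaS had 3 of 4 called, with the fourth at -0.13. AT1G13930, of the 15 largest rises, had 1 of 3 called, and its features ran from 1.12 to 3.06. PRK, not called as a gene, had 1 of 5 called, all between -0.67 and -0.35. The 13 features of AT1G54410 lay between -0.53 and 1.02, with 11 above 0 and 0 called by limma, so their spread is wider than that of the equally often spotted LHB1B2.

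**Figure D4:**
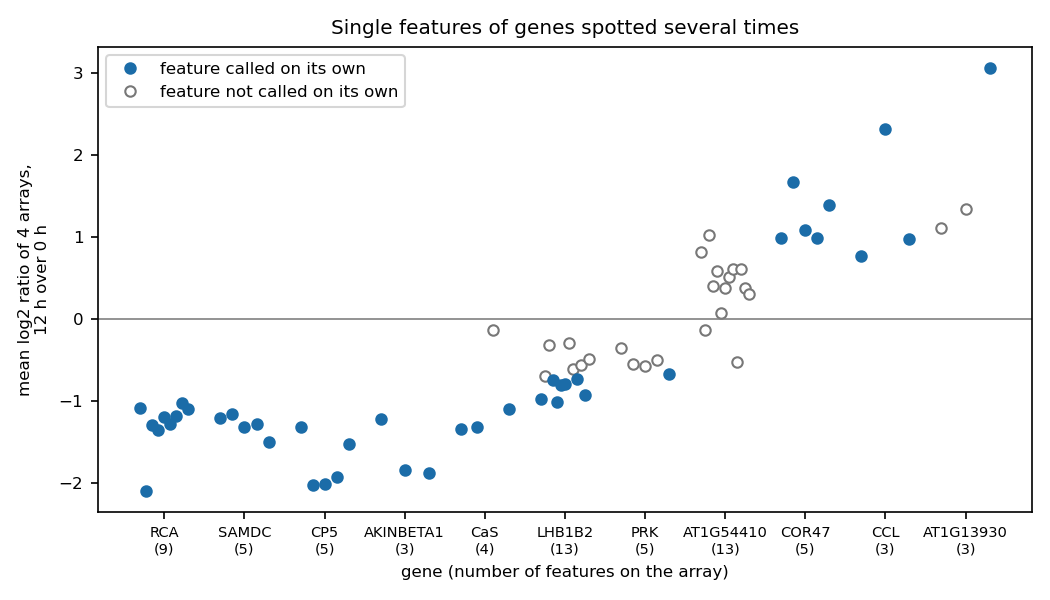
Mean log2 ratio of 12 h over 0 h (vertical axis) of every feature of selected genes with several features (horizontal axis), each feature tested alone. All 9 features of RCA, 5 each of SAMDC, CP5 and COR47 and 3 each of AKINBETA1 and CCL lie on 1 side of 0, while the 13 of AT1G54410 run from -0.53 to 1.02.

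On the array titled single the called changes did not recur. The first 2 features of a gene agreed little there (r = 0.13), and whether that array could show such changes was not tested. Of the 1063 called targets 513 had the same sign there (48.3%), 2 of them over 2-fold. Targets called higher had a median of 0.05 on it, and those called lower 0.09, so the medians of both groups lay near 0. On array 1, which was read with the same ScanAlyze version and had the same channel order, the medians were 1.16 and -1.05, but array 1 took part in calling the targets and so had to show their directions, while the array titled single took no part.

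The array of 60 h over 48 h also compares harvests 12 h apart, in plants raised in equal light and dark periods that had been in constant light for 24 h at the 48 h harvest and for 36 h at the 60 h harvest. It shares no 0 h sample with the 4 arrays, but it is a single array and the dye correction comes from other pairs of times. The first 2 features of a gene correlated at 0.26 on this array, against 0.44 to 0.53 on the 4 arrays. Of the 1063 called targets, 434 had the same sign on it (40.8%). Targets called higher at 12 h had a median of -0.17 on it, and those called lower 0.10. The difference between the changes, 12 h over 0 h minus 60 h over 48 h, passed for 180 of 11105 targets (1.62%, limma, Benjamini-Hochberg), taking the spread of this lone array to be that of the other arrays. Of these, 62 were higher and 118 lower in the 12 h comparison, 98 were also called at 12 h, and 155 had opposite signs in the 2 comparisons. Picking targets by a large difference favours opposite signs, so the 155 are a description and no separate finding. The count of 180 moves with the processing, and without array 1, 2, 3 or 4 it was 140, 100, 134 and 91.

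The named genes called both at 12 h and for this difference numbered 15. AT4G09500 was 2.25 at 12 h over 0 h and -1.51 at 60 h over 48 h, a difference of 3.76 ± 0.55 (SE, limma adjusted p = 0.0174). PWD, the starch dikinase, was 1.92 and -0.71, a difference of 2.64 ± 0.45 (limma adjusted p = 0.032). AT5G15950 was -2.11 and 1.31, a difference of -3.42 ± 0.38 (limma adjusted p = 0.00628). In each of these the fitted change had opposite signs in the comparisons, which picking by the difference favours. The same was true of GR, the glutathione reductase, at -1.26 and 1.42 (limma adjusted p = 0.0253 for the difference), of AT1G74470, geranylgeranyl reductase, at -1.54 and 0.46 (limma adjusted p = 0.0386), of ARD4, an acireductone dioxygenase, at -0.76 and 1.69 (limma adjusted p = 0.0343), and of AT5G64120 at 1.44 and -0.72 (limma adjusted p = 0.0386).

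For other genes the difference was not shown. RCA had -1.29 at 12 h and 0.84 at 60 h (limma adjusted p = 0.111 for the difference), CCL 1.36 and -0.38 (limma adjusted p = 0.0572), CHL 2.08 and -0.35 (limma adjusted p = 0.0947) and TZP -1.78 and 0.36 (limma adjusted p = 0.166). AKINBETA1 was below 0 in both, at -1.64 and -0.29 (limma adjusted p = 0.18), and COR47 above 0 in both, at 1.22 and 0.25 (limma adjusted p = 0.563).

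**Figure D5:**
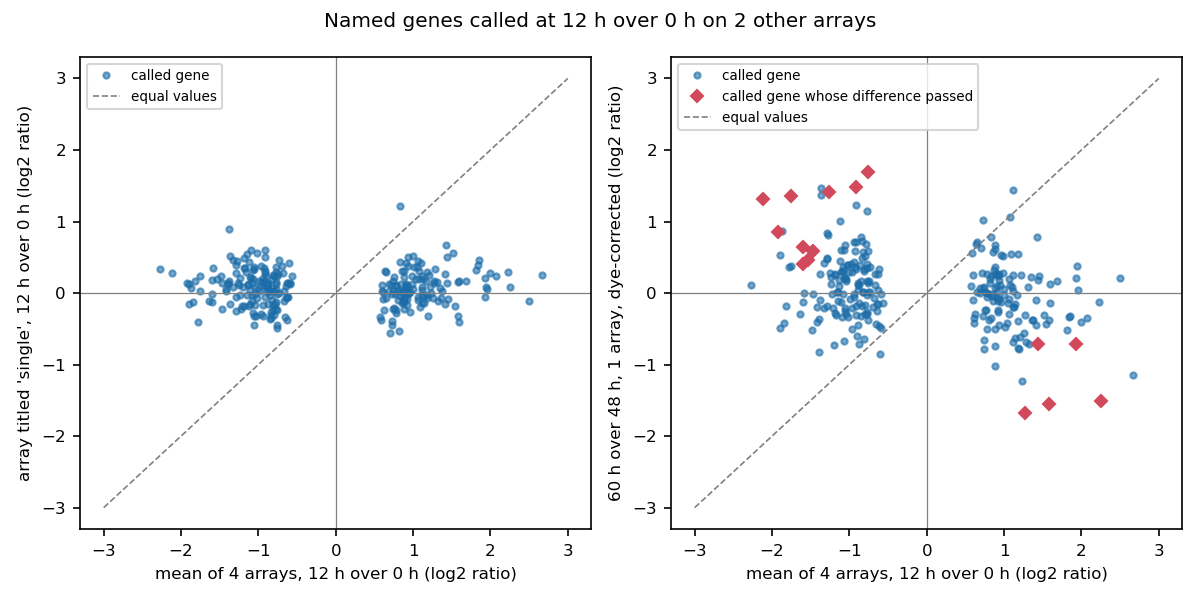
The 275 named genes called at 12 h, each a point, with the mean log2 ratio of arrays 1 to 4 on the horizontal axes against the log2 ratio on the array titled single (left panel) and the fitted log2 change at 60 h over 48 h (right panel), a dashed line for equal values and red diamonds for the 15 genes whose difference from 60 h over 48 h passed. The points of the left panel lie around 0 on the vertical axis, where 130 of the 275 share the sign of the mean. All 15 diamonds, such as PWD at 1.92 and -0.71, have opposite signs on the 2 axes, which picking by the difference favours.

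Of 565 pairs of measured neighbours in the TAIR10.1 gene table, 5 had both genes called, 4 of them in the same direction. With 7.45% of named genes called, nothing is read from that number, and the pairs are given as a description. TUA3 and TUA5 both rose, AT5G28740 and AT5G28750 both fell (-1.60 and -1.19), and AT5G26360 rose by 0.77 beside PWD. PORB, which rose, lies next to AT4G27450, which fell by 1.85.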

How the data were processed

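The authors deposited log2 ratios, 1 for each feature of each array. Per the labels, the arrays were scanned with ScanAlyze 2.33, 2.42 or 2.44. No source used here gives their background correction or normalisation. The deposited values show the log base themselves: the log2 of 1/2 occurs 159 times, against a mean of 20.45 at neighbouring steps. Gene names came from the platform annotation and were brought up to date with TAIR10.1, where 5190 of 5197 features found a match.

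Targets measured on 3 or more of the 4 arrays and on 9 or more of the 12 in the fit were tested with limma 3.58.1 (lmFit, eBayes) in R 4.3.3. The 12 arrays, without the array titled single, were fitted together, with a coefficient per pair of times and a dye term. The array labelled dark had its own coefficient. The 1 estimate of the spread per target came only from comparisons with more than 1 array, of which the 4 arrays are the largest group. Lone arrays were fitted exactly and added nothing to it. The median residual degrees of freedom were 4. The fit was tested on simulated data. P-values were adjusted over all targets.

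Named are the 15 largest rises and falls of the same sign on all 4 arrays, and called or leading members of the function lists. The lists were set by hand from the annotation after a search by symbol also caught clone names, and some planned lists were left out for lack of annotated members. The members and lists were chosen with earlier results of these data known. Alternatives left out arrays, changed the dye term, centring, scaling, filter, features and array groups. Counts per list with other arrays were added after seeing the data. The number of arrays limits the precision.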

Additional observations from a re-analysis of the deposited data

Results flagged for a closer look

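In 5 of the genes named here, 1 of the 4 arrays lay far from the others, by Dixon's 95% limit for 4 values, which chance passes in about 1 of 20 groups. With 119 genes named here, 5 is no more than that rate would give, so the 5 are listed as a description. SAMDC had -0.21 on array 1, against -1.79 to -1.53 on the others. ECS1 had 0.24 on array 1, against 1.72 to 1.92. LTI30 had 2.098 on array 1, against -0.21 to 0.15. AT2G44060 had 0.51 on array 2, against 0.93 to 0.97. NTRC had 0.22 on array 3, against -0.46 to -0.36. Array 1, the only one of the 4 read with ScanAlyze 2.44, is the distant array in 3 of the 5; the part of the software in this was not tested.

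For 11 genes named here the change at 12 h over 0 h differed from that at 60 h over 48 h in constant light, by a contrast in the same limma fit. The differences on the log2 scale were 3.76 for AT4G09500, 2.64 for PWD and 2.15 for AT5G64120, which were higher in the 12 h comparison. They were -3.42 for AT5G15950, -3.11 for AT4G32900, -2.79 for AT1G19400, -2.68 for GR, -2.45 for ARD4, -2.25 for AT5G28740, -2.001 for AT1G74470 and -1.997 for AT4G01880, which were lower in it. The 60 h comparison is 1 array, so its own spread was not measured, and light condition, day of the experiment and array cannot be told apart.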

How the results depend on the processing

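Of the 18 other settings run, those that moved the 1063 calls at 12 h by over 1.5 times were the array titled single included (464), the 4 arrays fitted alone without a dye term (553), the arrays of ScanAlyze 2.33 averaged (63), array 2 of 6 h turned to its title (1) and each array left out (444 to 626). With array medians not subtracted there were 1064 calls, 546 higher and 518 lower. Within ScanAlyze 2.33, where 3 of the 4 arrays lie, there were 1229, 514 higher and 715 lower, and the ScanAlyze 2.44 arrays hold only 1 of the 4. The 180 targets that differed from 60 h over 48 h became 49 with the array titled single included, 629 with every array brought to the same spread, 69 without the dye term, 14 with array 2 of 6 h turned, and 91 to 140 with an array left out. Turning that 6 h array left the median change at 12 h over all targets at -0.0166, as in the main fit. The cause of these moves was not tested. Of 2142 values of the named genes under these settings, 7 changed sign, all of genes that were not called: AT1G11860 (-0.0512 with the array titled single included, -0.0395 within ScanAlyze 2.33, and -0.0307 to 0.1133 with an array left out), LTI30 (-0.0066 within ScanAlyze 2.33) and TIC (-0.0589 within ScanAlyze 2.33, and -0.1092 to 0.2837 with an array left out). These settings reuse the same arrays, so the kept signs are no independent check. Each array holds both times, so every ratio already pairs 12 h with 0 h. No further pairing was possible because the labels give no replicate numbers shared between groups.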
